A study of Mus musculus with 10 samples.

Results

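The natriuretic peptide system was examined in sorted cardiomyocytes, the muscle cells that make the heart beat, through 8 genes: the peptide genes Nppa, Nppb and Nppc, the receptor genes Npr1, Npr2 and Npr3, and the protease genes Corin and Furin. They were taken by symbol from the 23337 genes of the authors' deposited table, and all 8 had a row. Wild-type mice received AAV9, an adeno-associated virus, on postnatal day 1, and cells were collected on postnatal day 14 by collagenase perfusion and fluorescence-activated sorting. The GFP group (5 libraries) received AAV9-cTNT-GFP and the dnMKL1 group (5 libraries) received AAV9-cTNT-dnMKL1-GFP, both at 5e+08 viral genomes per gram. The cardiac troponin T promoter (cTNT) limits the transgene to cardiomyocytes. dnMKL1 is a dominant-negative form of MKL1, also called MRTF-A, a coactivator of serum response factor (SRF).

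Nppa encodes atrial natriuretic peptide and Nppb encodes brain natriuretic peptide, hormones that heart muscle releases when it is stretched and that lower blood pressure and blood volume. Atria make most Nppa after birth, and ventricular cardiomyocytes make it before birth and again under load, so both genes serve as markers of stress in the ventricle. Furin cuts the Nppb precursor, and Corin, a protease on the cardiomyocyte surface, cuts the Nppa precursor. NPR1 binds both hormones and makes cyclic GMP, NPR2 does the same for the C-type peptide of Nppc, and NPR3 has no cyclase and clears all of them from the circulation.

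The promoters of Nppa and Nppb are shown because these neighbouring genes had fold changes of opposite sign and because the perturbed pathway acts through SRF, whose binding site is called a CArG box. The genes lie on chromosome 4 of GRCm38, on the plus strand, with Nppb at 147985788 to 147987205 and Nppa at 148000722 to 148002079, and 13517 bases between them. Sequences are from RefSeq (GRCm38.p6), 5′ to 3′. Capitals mark matches, on either strand, to the motifs GATAA (GATA factors), CATTCC (TEAD factors), AAGTG (NKX2-5), GGTGTG (T-box factors) and TGANTCA (AP-1), to a MEF2 site, and to a CArG box with at most 1 mismatch. The first line covers chr4:148000472-148000721, the 250 bases before the Nppa start. The second covers chr4:147985650-147985787, upstream of the first base of Nppb in GENCODE M21, and the third covers chr4:147985794-147985823, 106 to 77 bases before the start that RefSeq's promoter table uses.
Nppa promoter: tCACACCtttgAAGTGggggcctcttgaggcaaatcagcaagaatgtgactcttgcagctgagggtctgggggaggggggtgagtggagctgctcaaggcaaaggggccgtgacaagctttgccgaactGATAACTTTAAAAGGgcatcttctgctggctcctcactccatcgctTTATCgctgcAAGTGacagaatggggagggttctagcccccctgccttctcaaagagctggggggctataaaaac
Nppb upstream: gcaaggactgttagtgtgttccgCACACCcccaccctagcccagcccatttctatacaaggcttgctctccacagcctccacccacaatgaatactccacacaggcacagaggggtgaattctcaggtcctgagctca
Nppb element: aGGAATGcagctGATAAatcagaGATAAcc

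In the 250 bases before its start Nppa held 2 GATAA matches, 2 AAGTG matches, 1 GGTGTG match and, directly after a GATAA, the stretch CTTTAAAAGG, which matches a CArG box with 1 mismatch at 116 to 107 bases before the start. Nppb held 2 GATAA matches, 1 CATTCC match and 1 GGTGTG match over the same length before its RefSeq start. Its GATAA and CATTCC matches lie downstream of the first base of Nppb in GENCODE M21, and the GGTGTG match lies upstream of that base. A CArG box without mismatch was found in none of the 9 promoters listed for the 8 genes, and in 1.47% of all 32851 promoters. With at most 1 mismatch the share of all promoters was 18.6%, and Nppa, Corin and 1 of the 2 Furin promoters held a match. The other shares were 22.6% for GATAA, 12.6% for CATTCC, 40.7% for AAGTG, 16.3% for GGTGTG, 6.75% for TGANTCA and 0.508% for the MEF2 site. The promoters of Nppc, Npr1, Npr2 and Npr3 held none of these letters in this window. A match is a description of the sequence, not of binding.

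The deposited table compares the groups and holds no values per library, so each gene has 1 base mean (the average of normalized counts over the 10 libraries), 1 log2 fold change and 1 standard error (SE). An implied group mean was computed from base mean and fold change. An implied coefficient of variation (CV) between libraries was computed from the SE, and the spread between libraries enters every test through that SE. Positive fold changes mean higher in dnMKL1, read from Mkl1, whose log2 fold change was 9.80 (SE 0.15) in the authors' deposited table. Size factors recovered from genes with 1 read ran from 0.660 to 1.58, and estimated totals from 8803028 to 17228616 counts per library. Reads carry no molecular identifiers, so statements about depth cover counting error only. A gene was called at an adjusted Wald p-value under 0.05 (Benjamini-Hochberg), and 34.1% of the 14056 genes tested in this way were called, 2340 higher and 2452 lower. Scaling both groups to the same total would add 0.29 to every log2 fold change and give 5685 higher and 927 lower. The 10 cardiomyocyte markers were abundant, with Myh6 at a base mean of 594986 in the authors' deposited table. Of these, 7 were lower and 0 higher (70% and 0%, beside 17.4% and 16.6% of all genes). Scaled to equal totals, 5 were lower and 0 higher (50% and 0%, beside 6.6% and 40.4% of all genes). The summed implied mean of the 10 was 1604195 in GFP and 878220 in dnMKL1.

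An adjusted p-value was given for 6 of the 8 genes, and 2 of those 6 were called, a share of 33.3% beside the background of 34.1%. Npr3 was higher (1 gene, background 16.6% higher) and Nppb was lower (1 gene, background 17.4% lower). Npr1, Npr2, Corin and Furin did not pass. For Nppa the table gives a fold change without a p-value, and for Nppc a p-value (0.739) without adjustment. The median log2 fold change of the 6 genes was 0.17, beside 0.021 over all genes tested.

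**Figure D1:**
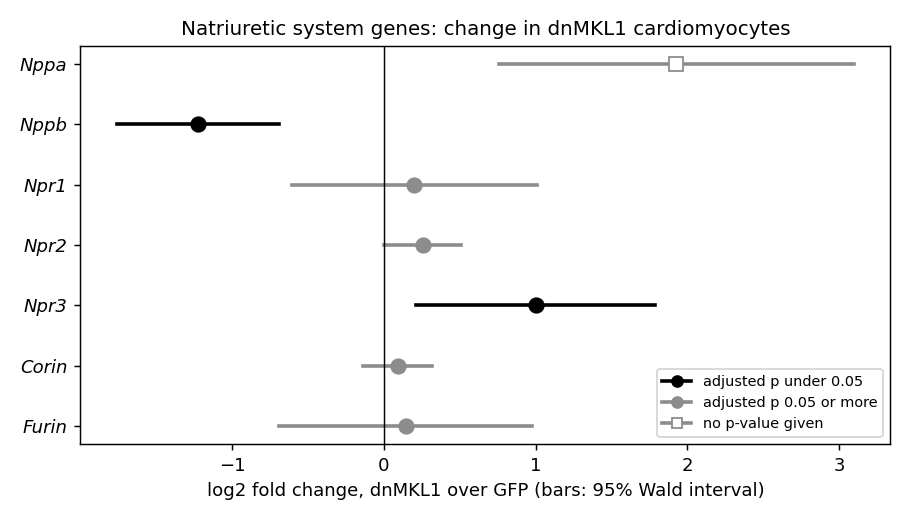
Log2 fold change of 7 genes (dnMKL1 over GFP) on the horizontal axis, with 95% Wald intervals from the deposited SE. Black marks an adjusted p-value under 0.05 (Nppb at -1.22, Npr3 at 1.00), grey a larger one, and the open square Nppa at 1.93, for which no p-value is given.

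Nppb was 2.34-fold lower in dnMKL1 cardiomyocytes (95% interval 1.62 to 3.38). The authors' deposited table gave a log2 fold change of -1.22 (SE 0.27) with an adjusted Wald p-value of 5.5e-05. Its implied mean was 1561 normalized counts with GFP and 668 with dnMKL1, with an implied CV of 29.6%. That spread is wide for its level: of the 200 genes nearest in base mean, 4 had a larger SE, and their median implied CV was 10.5%. The fall of Nppb passed the test although the gene varied more between libraries than most genes of its level. Scaled to equal totals, its log2 fold change was -0.94 and it was still called.

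Nppa stood on the other side. Its implied mean was 1935 normalized counts with GFP and 7359 with dnMKL1, a 3.80-fold difference with a 95% interval from 1.69 to 8.54. The authors' deposited table gave a log2 fold change of 1.93 (SE 0.60) and a Wald statistic of 3.23, but no p-value, so the gene is not called here. Software that writes this kind of table by default withholds the p-value of a gene in which the count of a library lies far from the fit. Whether that setting was used is not given in the sources used here, and whether 1 library carries the fold change cannot be told from the table. The p-value of the deposited Wald statistic would be 0.00122, or 0.00537 after Benjamini-Hochberg adjustment (14064 genes), a calculation chosen after seeing the data. It takes no account of whatever led to the missing value.

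The spread of Nppa was among the widest at its level. Its implied CV was 65.3%, against a median of 10.7% for the 200 genes nearest in base mean, and 1 of those 200 had a larger SE. Whether single libraries of the groups overlap cannot be told from the table. Per kilobase of transcript, Nppa exceeded Nppb by 1.12 times in the GFP group and by 9.95 times in the dnMKL1 group. The gap in GFP was smaller than the implied SD of either gene, so their order there was not separated beyond the spread. Both ratios rest on the Nppa fold change that has no p-value.

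**Figure D2:**
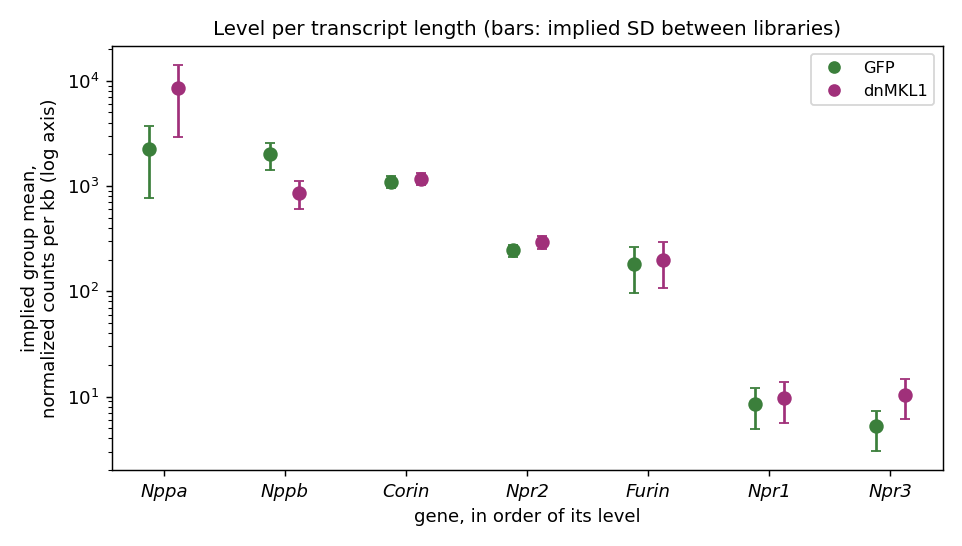
Implied group means per kilobase of the longest transcript (log axis) for GFP and dnMKL1, in order of level. Bars are the implied SD between libraries. Nppa lies higher and Nppb lower with dnMKL1, while Corin is at 1100 and 1171.

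Because atrial muscle is the richest source of Nppa, markers of atrial cardiomyocytes were read beside it. All 12 were tested, and 2 were higher (Stard10 and Pam) and 0 lower. Those shares were 16.7% and 0%, beside 16.6% and 17.4% of all genes, so calls of higher genes were near the background. The median log2 fold change of the 12 was 0.30, and their summed implied mean was 3434 normalized counts in GFP and 4904 in dnMKL1. Pam makes up most of that difference, and without it, a sum chosen after its values were seen, the other 11 markers were at 1631 and 2004. Of these 12, 5 carried very large errors. In the authors' deposited table the log2 fold change was 0.42 (SE 1.24) for Myl7, the atrial regulatory light chain, 1.43 (SE 1.55) for Sln, which encodes the calcium pump inhibitor sarcolipin, and 0.37 (SE 0.76) for Myl4, the atrial essential light chain. It gave -0.018 (SE 2.04) for Bmp10, a growth factor of the atrium. None of the 200 genes nearest in base mean had a larger SE than Myl7, Sln, Myl4 or Bmp10, respectively, and their implied CVs were 136%, 170%, 83.3% and 221%. No atrial marker was at 0. Dkk3, a secreted protein, was like these, at 1.31 (SE 0.93), with 1 of 200 above it. The other 7 had an ordinary or moderately wide SE for their level, with 13 (Pam) to 151 (Tbx5) of the 200 nearest genes above them, among them Kcna5 and Kcnj3, atrial potassium channels, at 25 and 33. A wide spread was not limited to atrial genes: for the 12 endothelial and endocardial markers, 0 to 28 of the 200 nearest genes had a larger SE. The part of these cells in the Nppa value was not tested. In bulk samples such as these, more cells of a type and more RNA per cell cannot be told apart.

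**Figure D3:**
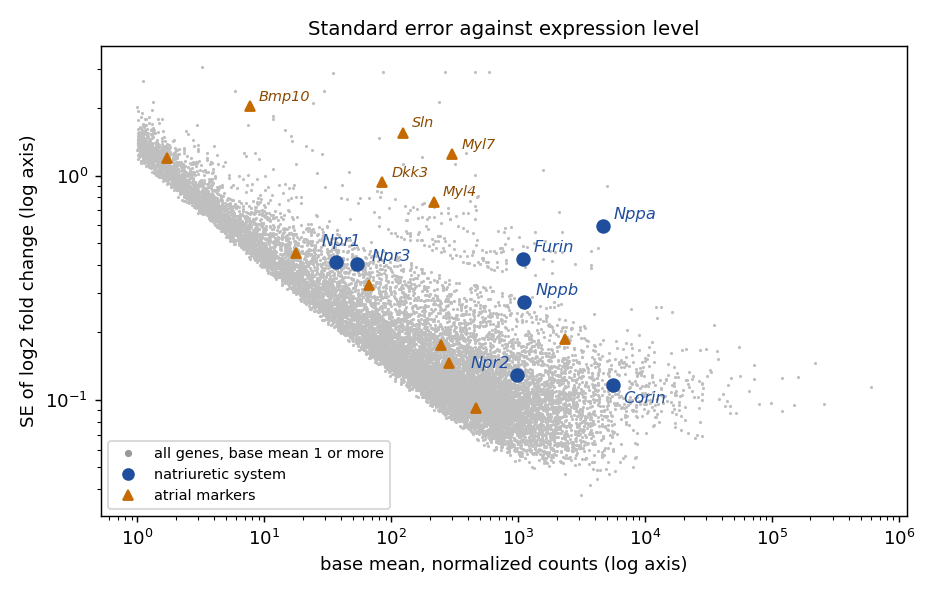
SE of the log2 fold change against base mean (both log axes) for every gene at a base mean of 1 and above (grey), the natriuretic genes (blue circles) and atrial markers (orange triangles). Nppa at 0.60 and Furin at 0.42 lie far above the band of genes of their level, as do Myl7, Sln, Myl4, Dkk3 and Bmp10.

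Nppa also marks the trabecular muscle from which the ventricular conduction system forms, and markers of conduction cells were read for that reason. Of 8 markers, 6 were tested and 6 were higher, beside 16.6% of all genes, with a median log2 fold change of 1.04. All 6 were also higher at equal totals, beside 40.4% of all genes. Gja5, the connexin of the fast conduction fibres and of atria, had 1.67 (SE 0.19) in the authors' deposited table. Cntn2, a surface protein of Purkinje cells, had 1.05 (SE 0.26), Cacna1g, a T-type calcium channel, had 1.04 (SE 0.15), and Irx3, a factor of the bundle branches, had 0.84 (SE 0.16). Hcn4, a pacemaker channel, had 0.52 (SE 0.20). The summed implied mean of the list was 2027 normalized counts in GFP and 4374 in dnMKL1. Isl1 was listed at 0, and Shox2, a factor of the sinus node, had a base mean of 0.219 in the authors' deposited table. Of 5 ventricular markers, 3 were lower and 0 higher (60% and 0%, beside 17.4% and 16.6% of all genes). Scaled to equal totals, 2 were lower and 0 higher (40% and 0%, beside 6.6% and 40.4% of all genes). Myl2 and Myl3 are also on the cardiomyocyte list, so the lists are not independent. The conduction list was drawn up with earlier results of these data known, and its part in the Nppa value was not tested.

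**Figure D4:**
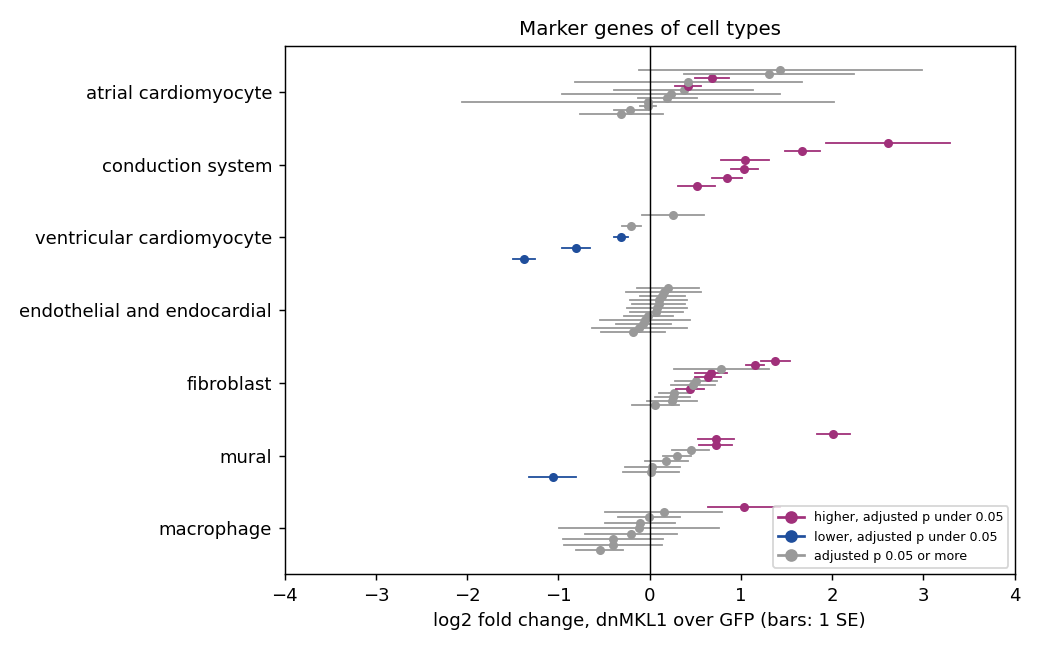
Log2 fold change (dnMKL1 over GFP) with 1 SE for tested markers of 7 cell types. All 6 conduction markers lie to the right of 0, the atrial markers carry the longest bars, and the 12 endothelial and endocardial markers lie around 0.

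Genes beside the peptide cluster had small fold changes. Clcn6, a chloride transporter gene 2185 bases from Nppa, had a log2 fold change of 0.28 (SE 0.13, adjusted p = 0.0916) in the authors' deposited table, and was called higher at equal totals (0.56). 2510039O18Rik, on the other side of Nppb, had -0.029 (SE 0.12) and was not called. Plod1, a collagen hydroxylase gene 49010 bases from Nppb, was lower at -0.23 (SE 0.06), a change smaller than the 0.29 that equal totals would add. GENCODE M21 places an antisense gene, Gm13054, over part of the Nppa exons. It has no row in the table, and since the use of strand in counting is not given in the sources used here, its reads cannot be told apart from those of Nppa. Genes on the opposite strand, without a row, also cover exon bases of Npr1, Npr2, Npr3, Corin and Furin, with the same limit.

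The genes nearest to the other members of the system were read, up to 2 on each side and any that overlapped. Of those tested, 3 were called and most were not, a share below the background of 34.1% of all genes tested. Hint2, a mitochondrial hydrolase gene 2790 bases from Npr2, had -0.51 (SE 0.11) in the authors' deposited table, Snapin, a vesicle protein gene near Npr1, had -0.33 (SE 0.10), and Blm, a helicase gene near Furin, had 0.55 (SE 0.19). At equal totals Hint2 (-0.22) and Snapin (-0.046) were not called, and Blm (0.84) was. Ints3 (0.54) and Ilf2 (0.40), near Npr1 and not called as deposited, were called higher at equal totals, where 40.4% of all genes were. Fes, a kinase gene 1240 bases from Furin, was not called, at 0.32 (SE 0.32), and neither were the tested genes nearest to Nppc, Npr3 and Corin, of which Dis3l2, Zfr, Commd8 and Nfxl1 were called higher at equal totals.

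The third peptide gene, Nppc (chromosome 1, 86666291 to 86670571), was at the edge of detection. Its base mean of 0.227 in the authors' deposited table amounts to 2.27 normalized counts over all libraries. That equals 2 reads in 1 dnMKL1 library and 0 elsewhere, and no other combination of up to 4 reads came within 1e-04. The 0 reads in GFP libraries, over an estimated 65351598 counts, allow up to 3 reads. Both groups are under that floor and no fold change is given.

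Among the receptors, Npr3 was 2.0-fold higher in dnMKL1 (95% interval 1.16 to 3.45). The authors' deposited table gave a log2 fold change of 1.00 (SE 0.40) with an adjusted Wald p-value of 0.0392 (Benjamini-Hochberg), close to the threshold. The implied means were 35.8 normalized counts with GFP and 71.7 with dnMKL1, among the lowest levels of the system. Its implied CV was 41.5%, and 12 of the 200 genes nearest in base mean had a larger SE. The gene is at 11839896 to 11907287 on chromosome 15, on the minus strand. The ligand osteocrin (Ostn), which binds NPR3 and competes with the natriuretic peptides for clearance, was also called higher (adjusted Wald p-value 0.0122, Benjamini-Hochberg). It was at implied means of 0.184 and 4.69 normalized counts in GFP and dnMKL1, too few reads for a fold change to be given.

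NPR3 is abundant in endocardium and other endothelium, so those cells were checked. Of 12 endothelial and endocardial markers, 0 were called by the authors' Wald test and 0 had an unadjusted p-value under 0.05. Their summed implied mean was 4678 normalized counts in GFP and 4769 in dnMKL1, and at equal totals 0 of them were called as well. Their errors were wide, with implied CVs from 25.4% to 57.4% and SEs such as 0.30 for Pecam1 and 0.52 for Fabp4 in the authors' deposited table, so the lack of calls does not show that their levels were equal. Fibroblast markers were higher in 5 of 12, with 0 lower (41.7%, beside 16.6% of all genes, and 75% beside 40.4% at equal totals). They summed to 5297 in GFP and 8990 in dnMKL1. The 5 were Col1a1, Col1a2, Col3a1, Fbln1 and Gsn. Pdgfra (log2 fold change 0.063, SE 0.25), Dcn, Lum, Tcf21, Postn, Dpt and Mmp2 were not called as deposited. Fbln1 (748 and 1944) and Gsn (876 and 1951) had the largest rises in implied mean. Of 9 tested macrophage markers 1 was higher and 0 lower (11.1% and 0%, summed implied means 172 and 155), and of 9 mural markers 3 were higher and 1 lower (33.3% and 11.1%, beside 16.6% and 17.4% of all genes). The mural sum was 18254 in GFP and 15947 in dnMKL1. Without Acta2, smooth muscle actin, the other 8 markers summed to 7800 and 10949, so 1 gene turned its direction. Of those 8, Cspg4 (501 and 2019) and Abcc9 (6332 and 7773, not called) had by far the largest rises in implied mean. Pdgfrb, Rgs5, Kcnj8 and Notch3 were not called. The part of fibroblast RNA in the Npr3 value was not tested.

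Npr2, the receptor of the C-type peptide, was by far the most abundant receptor transcript. Per kilobase of the longest transcript, its implied mean was 244 normalized counts in GFP and 292 in dnMKL1, compared with 8.40 and 9.65 for Npr1 and 5.20 and 10.4 for Npr3. It made up 94.7% of the 3 receptor genes in GFP and 93.6% in dnMKL1, and 94.2% over all libraries with the median transcript length instead. The transcript of its ligand Nppc was at the detection limit in the same cells. The authors' deposited table gave Npr2 a log2 fold change of 0.26 (SE 0.13), with a p-value of 0.0465 before and 0.113 after Benjamini-Hochberg adjustment of the Wald test. The 95% interval ran from 0.0039 to 0.51, and scaling to equal totals moved the value to 0.55 with a call. The gene lies at 43631935 to 43651244 on chromosome 4, away from the peptide cluster. Spag8, which overlaps it in RefSeq, had a base mean of 2.37 in the authors' deposited table.

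Npr1, the receptor through which both cardiac hormones raise cyclic GMP, had a base mean of 36.7 in the authors' deposited table. Its log2 fold change was 0.20 (SE 0.41), and the interval from -0.61 to 1.01 includes falls and rises of appreciable size. Its implied CV was 41.9%. The gene is at 90450591 to 90465866 on chromosome 3.

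The processing enzymes were both well expressed and neither was called. Corin (chromosome 5, 72300025 to 72504473) had a base mean of 5520 in the authors' deposited table, the largest of the 8 genes before division by length. Its implied means were 5347 normalized counts in GFP and 5694 in dnMKL1. The log2 fold change was 0.091 (SE 0.12), with a 95% interval of -0.14 to 0.32. That interval lies above the interval of Nppb (-1.76 to -0.69) and overlaps that of Npr3 (0.21 to 1.79). Scaled to equal totals the value was 0.38, with an adjusted Wald p-value of 0.00376, so whether Corin is called depends on the scaling. The implied CV of 12.7% was close to the median of 10.9% for genes of like base mean.

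Furin (chromosome 7, 80388585 to 80405436) had nearly equal means and a wide spread between libraries. Its implied means were 1032 normalized counts in GFP and 1140 in dnMKL1, with a log2 fold change of 0.14 (SE 0.42) and an adjusted Wald p-value of 0.850 (Benjamini-Hochberg). Of the 200 genes nearest in base mean, 1 had a larger SE, and the implied CV was 46.4% against a median of 9.90%. The 95% interval ran from -0.69 to 0.98, an interval that holds both a sizeable fall and a rise nearly as large as that of Npr3. Corin exceeded Furin 6.11-fold per kilobase in GFP and 5.89-fold in dnMKL1.

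Ordered by level per kilobase over all libraries, Nppa had 5372 normalized counts (rank 112 of 20953 genes with a length), Nppb 1427 (rank 413) and Corin 1135 (rank 528). Npr2 followed at 268 and Furin at 189, and then Npr1 at 9.03 and Npr3 at 7.80. In the GFP group the gap between Npr2 and Furin and that between Npr1 and Npr3 were smaller than the implied SD of Furin and of Npr1, so with these lengths the neighbours were not separated beyond their spread. With the median transcript length they were, at 1003 and 297 for Npr2 and Furin and 43.2 and 14.2 for Npr1 and Npr3. Nppb lay above Corin in GFP (1998 and 1100) and below it in dnMKL1 (855 and 1171). Over all libraries, with the median transcript length, Corin stood at 1876, above Nppb, and Npr2 at 1101. The order of Nppb and Corin over all libraries thus depends on the transcript used. Within each group their order stayed the same with the median length, at 1998 and 1817 in GFP and 855 and 1935 in dnMKL1. In dnMKL1 Npr1 and Npr3 were at 9.65 and 10.4 with the longest transcript, a gap far inside their implied CVs, and at 49.7 and 28.3 with the median length.

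The genes around the system were read in 7 lists of 89 genes, of which 76 were tested. Of those, 21 were higher and 7 lower, or 27.6% and 9.21%, beside 16.6% and 17.4% of all genes. Scaled to equal totals, 36 were higher and 4 lower, or 47.4% and 5.26%, beside 40.4% and 6.6% of all genes. Mkl1 is 1 of the 21, and its call was fixed by the design, since dnMKL1 was delivered. The median of the 76 tested genes was 0.24 as deposited. The first list held other convertases and secretory granule proteins. Of 7 tested, 2 were higher and 1 lower (28.6% and 14.3%), with a median of 0.23. Pam, the amidating enzyme that is the main membrane protein of atrial granules, had a log2 fold change of 0.69 (SE 0.19) in the authors' deposited table, and Cpe, a carboxypeptidase of the secretory path, had 0.23 (SE 0.08). Pcsk7, a convertase related to Furin, was lower at -0.24 (SE 0.07), a sign that turned at equal totals. Pcsk6, the convertase that activates Corin, was not called, at -0.81 (SE 0.69). Chga, the gene of the granule protein chromogranin A, was listed at 0.

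Neprilysin (Mme), the peptidase that degrades natriuretic peptides, was lower. Its implied mean was 187 normalized counts in GFP and 76.7 in dnMKL1, and the authors' deposited table gave a log2 fold change of -1.29 (SE 0.22) with an adjusted Wald p-value of 1.4e-07 (Benjamini-Hochberg). It was lower by about the same amount as Nppb. Of the 5 tested genes of its list, 1 was higher (Ostn) and 1 lower (Mme), with a median of -0.052. Each share was 20%, beside 16.6% higher and 17.4% lower of all genes. Ide, the insulin-degrading enzyme that also cuts natriuretic peptides, had a base mean of 3751 and a log2 fold change of -0.19 (SE 0.40), with 2 of the 200 genes nearest in base mean having a larger SE.

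Soluble guanylyl cyclase, the receptor of nitric oxide and the other main source of cyclic GMP, was higher in both of its main subunits. The implied means of Gucy1b3 were 56.2 normalized counts in GFP and 131 in dnMKL1 (log2 fold change 1.22, SE 0.19, in the authors' deposited table), and those of Gucy1a3 were 92.1 and 146 (0.67, SE 0.22). Of the 6 tested genes of this list, 3 were higher and 0 lower, with a median of 0.40. Those shares were 50% and 0%, beside 16.6% and 17.4% of all genes. The list's shares were the same at equal totals, beside 40.4% and 6.6% of all genes. The third was Gucy2e, known from the retina, at a base mean of 5.75. Nos3, the endothelial nitric oxide synthase, was not called, at 0.14 (SE 0.32).

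Of 11 phosphodiesterases and exporters, 2 were higher and 1 lower, with a median of 0.29. Those shares were 18.2% and 9.09%, beside 16.6% and 17.4% of all genes. Scaled to equal totals, 5 were higher and 1 lower, or 45.5% and 9.09%, beside 40.4% and 6.6% of all genes. Pde3a, which cyclic GMP inhibits, had a log2 fold change of 0.48 (SE 0.14) in the authors' deposited table, and the nucleotide exporter Abcc5 had 0.40 (SE 0.13). Pde1c, a calcium-activated phosphodiesterase of cardiomyocytes, had -0.87 (SE 0.19). Pde5a and Pde9a, which break down cyclic GMP, had base means of 6.80 and 9.04 and were not called, and Pde2a, the cyclic GMP-stimulated form, was not called at 0.045 (SE 0.09), but was called higher at equal totals (0.33).

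Among cyclic GMP-dependent kinases and their targets, 2 of 12 were higher and 1 lower, with a median of 0.30. Those shares were 16.7% and 8.33%, beside 16.6% and 17.4% of all genes. Scaled to equal totals, 3 were higher and 0 lower, or 25% and 0%, beside 40.4% and 6.6% of all genes. Rgs2, which the kinase activates to dampen G protein signals, had a log2 fold change of 0.73 (SE 0.15) in the authors' deposited table, and Ppp1r12a, the regulatory subunit of myosin phosphatase, had 0.29 (SE 0.11). Tnni3, cardiac troponin I, had -0.49 (SE 0.13) and lost its call at equal totals. Prkg1, the kinase itself, was not called, at 0.42 (SE 0.20, adjusted Wald p-value 0.0890), and was called higher at equal totals (0.71).

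**Figure D5:**
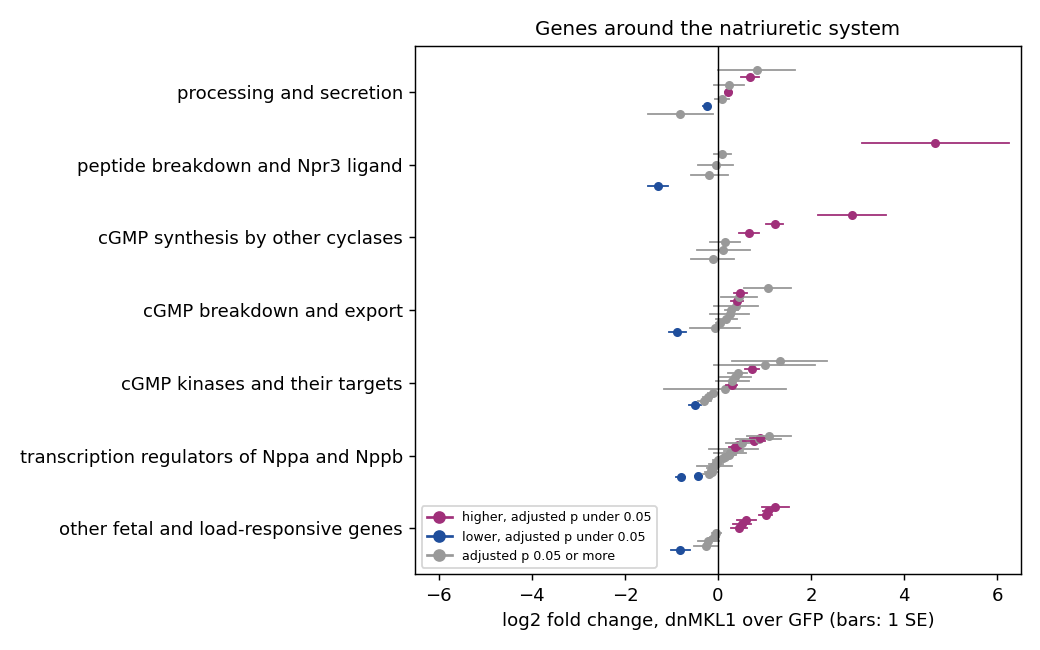
Log2 fold change (dnMKL1 over GFP) with 1 SE for the tested genes of 7 lists, except Mkl1 (9.80), which lies outside the axis. The lowest point is Mme at -1.29, and the highest shown is Ostn, which rests on very few reads.

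Of 24 tested factors that act on the Nppa and Nppb promoters, 5 were higher and 2 lower, with a median of 0.19. As deposited, the called share was 29.2%, near the background of 34.1%. Scaled to equal totals, 14 were higher and 1 lower, a called share of 62.5% beside 47% of all genes. The higher share was then 58.3%, beside 40.4% of all genes. Mkl1 itself is 1 of the 5, and its call was fixed by the design, since dnMKL1 was delivered. Among factors of the GATA, NKX2-5, T-box and TEAD motifs, some had narrow errors. Gata4 had a log2 fold change of 0.10 (SE 0.07) in the authors' deposited table, Nkx2-5 had -0.0031 (SE 0.10), Tbx5 had -0.019 (SE 0.09) and Tead1 had -0.19 (SE 0.12), all without a call. Others had wider ones: Tbx20 had an SE of 0.21, with 3 of the 200 nearest genes above it, Tbx2 had 0.38 and Gata6 had 0.14, none of them called. At equal totals Gata4 (0.39), Nkx2-5 (0.29) and Tbx5 (0.27) were called higher. Srf was lower, with implied means of 1082 normalized counts in GFP and 620 in dnMKL1, and Mef2d was at -0.42 (SE 0.08), not called at equal totals. Myocd, the cardiac and smooth muscle coactivator of SRF, was higher, with implied means of 2293 and 4272, and so were Mkl2 at 0.43 (SE 0.08) and Jun at 0.77 (SE 0.24). Rest, a repressor of both peptide genes, was higher at 0.36 (SE 0.11).

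Other genes known to rise with Nppa and Nppb in a fetal or loaded heart were higher more often than lower. Of 11 tested, 6 were higher and 1 lower, or 54.5% and 9.09% beside 16.6% and 17.4% of all genes. Scaled to equal totals, the shares were 63.6% and 9.09%, beside 40.4% and 6.6% of all genes. The median log2 fold change as deposited was 0.45, beside 0.021 over all genes tested. This list too was chosen with earlier results of these data known. Fhl1, a LIM protein of hypertrophied muscle, had 1.08 (SE 0.10) in the authors' deposited table, Actn1, the non-sarcomeric actinin, had 1.02 (SE 0.13), and Tgfb2, a growth factor, had 1.23 (SE 0.28). Rcan1, a calcineurin target, had 0.61 (SE 0.21), and Ankrd1, a stretch-responsive protein, had 0.45 (SE 0.18). Ckb, brain creatine kinase, was lower at -0.81 (SE 0.21), and Acta1, skeletal actin, was not called at -0.20 (SE 0.23). Myh7, the fetal myosin, like Nppa had no p-value, at 0.92 (SE 0.90).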

How the data were processed

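RNA sequencing of sorted mouse cardiomyocytes was read from 1 deposited table. Per the labels' design text and the submitters' processing notes, reads were aligned with STAR (2.5.3a) to mm10 and counted with featureCounts (Subread 1.5.2). Neither the gene annotation nor strand handling is given in the sources used here. Per the file headers, columns carry the names of a DESeq2 results table. The authors' base mean is a signal in normalized counts, and the deposited fold change and SE are log2 values. The deposited Wald statistic is a score that equals fold change over SE within 1.1e-05, and the deposited p-value and adjusted p-value follow from it (Benjamini-Hochberg over 14056 genes, recomputed within 1.4e-07). Tests are the authors' own, not refitted. A count test had been planned only for values per library, and these were not used here.

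Group means assume groups of equal size (2 groups of 5), and CVs a negative binomial model with equal library sizes. Both were checked on simulated data in which the SE was computed from the true spread. That check covers the arithmetic, and not how the authors' software estimated the spread behind the deposited SE. Labels do not state whether the replicates are separate animals beyond calling them biological, so p-values measure the spread between these libraries. The genes and lists were chosen with earlier results of these data known. All 8 genes are named. From each list the 5 called genes (or fewer) of smallest adjusted p-value above a base mean of 50 are named, with further genes for their role and the nearest genomic neighbours. Some genes that this rule would name are not reported here. Lengths are the longest GENCODE M21 transcript. Computations used Python 3.11.15, pandas 2.3.3 and scipy 1.17.1. Thresholds, base mean minima (10 and 100), scalings and lengths were varied.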

Additional observations from a re-analysis of the deposited data

How the results depend on the processing

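Scaling both groups to equal totals moved the most results. Over all genes 5685 were higher and 927 lower (2340 and 2452 as deposited), and among the natriuretic genes 3 were higher. In the 7 lists 36 were higher and 4 lower with a median of 0.52. Those shares were 47.4% and 5.26%, beside 40.4% and 6.6% of all genes. Under this scaling Npr2 (0.55) and Corin (0.38) were called higher, by construction of the added 0.29. Requiring a log2 fold change of at least 0.5 in size gave 1489 higher and 1246 lower genes, and 4 lower genes in the lists. With an adjusted p-value under 0.01, Npr3 (1.00) lost its call and 0 natriuretic genes were higher. At base means of 100 and above, 0 were higher, since Npr3 is below that level. Nppa (1.93) would be called if its deposited Wald statistic were given a p-value, an alternative added after seeing the data. Nppb stayed lower and called under all 8 planned settings, and median-centring, adjustment over every p-value, a threshold of 0.1 and a base mean of at least 10 changed no call of a natriuretic gene. Median transcript lengths moved the level per kilobase of Npr1, Npr2, Npr3, Corin and Furin upward. No paired analysis was possible because the table carries no values per replicate number. Count tests with edgeR or DESeq2, a fit without a low-count filter and fits leaving out each library, all planned, were not run because they need such values.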

Other observations

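Nppa is 1 of 8 genes for which the authors' deposited table lists a fold change without a p-value. The others are Myh7, Atp6v0e2, Mybphl, Adamts8, Tmem163, Wtip and Gm5506, named because the set is small and chosen after their values were seen. Myh7 and Mybphl, a myosin-binding protein gene of the atrium, had implied CVs between libraries of 98.8% and 160%. The implied means of Mybphl were 39.8 normalized counts in GFP and 121 in dnMKL1. Furin and Ide, proteases of the processing and breakdown of natriuretic peptides, had SEs of 0.42 and 0.40 in the authors' deposited table where genes of like base mean had median SEs of 0.095 and 0.097, and neither was called.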
